A study of Saccharomyces cerevisiae with 4 samples.

Results

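The comparison described here set 2 of the 4 arrays of the series against each other, that of a Saccharomyces cerevisiae culture labelled KIN28 overexpression and that of a culture labelled POG1 overexpression, both harvested 60 min after lithium chloride was added to 200 mM. Both arrays were taken by their titles. The cultures had grown exponentially at 25 °C in synthetic complete drop-out medium with glucose, and poly(A)-enriched RNA was labelled with biotin and hybridized to Affymetrix YG-S98 arrays, which carry 1 probe set or more for nearly every yeast gene. The other 2 arrays, of the same cultures at 0 min and before any lithium, are given beside them as the background difference between the cultures. Each culture and time had 1 array and no replicate, so every value below describes these arrays and no p-value could be computed. The series title concerns stress sensitivity caused by mutation of RSP5, but the RSP5 genotype, the strain, the promoters, the plasmids and the drop-out medium of each culture are not given in the sources used here. No culture carrying a vector alone enters the comparison. Overexpressed gene, plasmid, medium and culture therefore cannot be told apart in any difference between the arrays.

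KIN28 encodes the kinase subunit of TFIIH, a general transcription factor, and marks the tail of the largest RNA polymerase II subunit with phosphate as transcription begins. POG1 encodes a nuclear protein thought to act in transcription that, when overexpressed, helps cells to recover from the arrest caused by mating pheromone. RSP5 encodes an essential ubiquitin ligase that acts on membrane transporters and other proteins. Lithium enters yeast as a toxic analogue of sodium, is pumped out by ATPases of the ENA family, and inhibits the phosphatase made by MET22, which clears a by-product of sulfate assimilation, and phosphoglucomutase. Yeast answers such salt stress by making glycerol, by inducing general stress genes and by lowering the expression of genes for making ribosomes.

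A signal below is the deposited intensity divided by the median of its array, so 1 is the median probe set, and values joined by "then" are those at 0 and at 60 min. The median intensities were 54.5 for the KIN28 culture and 48.1 for the POG1 culture at 60 min, and 41.8 and 60.6 at 0 min. Signals under the 20th percentile of an array were set to it, at 0.225 in the KIN28 culture and 0.218 in the POG1 culture at 60 min, and a gene held there is called at the floor. Of 9275 probe sets that are no controls, 6504 matched a single gene and gave 5656 genes. A gene or probe set was counted as higher in a culture where its signal there was 2-fold or more that in the other and 1 array or both exceeded the floor, and log2 ratios are those of the KIN28 over the POG1 culture. Readings of the same gene by different probe sets gave a measure of precision. Among 152 genes with 2 probe sets, 37 (24.3%) had log2 ratios more than 2-fold apart, and the SD of 1 probe set was 0.64. Where both probe sets were at or above the array median, 5 of 54 genes (9.26%) were that far apart and the SD was 0.41. Dim genes were counted more often: 25.1% of genes with a mean signal under 0.5 differed 2-fold, against 3.25% of those at 8 or above.

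The arrays matched their labels. KIN28 gave signals of 71.8 then 64.7 where it was overexpressed and 1.16 then 0.872 in the other culture, 74.2-fold apart at 60 min. POG1 gave 58.1 then 75.03 in the POG1 culture, while the KIN28 culture was at 0.219 and then at the floor, which makes it at least 333-fold higher in the POG1 culture at 60 min. Against the 95th percentile of the negative control sets of the array the bound for POG1 was 302-fold. Neither neighbourhood shared the difference, with log2 ratios from −0.48 to 0.27 for the 6 genes around KIN28 and from 0.20 to 0.92 for the 6 around POG1.

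RSP5 gave 5.95 in the KIN28 culture and 5.32 in the POG1 culture at 60 min, a log2 ratio of 0.16 that is smaller than the SD of 1 probe set. URA3, the pyrimidine gene widely used to select plasmids, gave 0.407 then 0.410 in the KIN28 culture, and 3.48 then 1.89 in the POG1 culture. Its log2 ratio was −2.20 at 60 min and −3.10 at 0 min, and a separate control probe set for URA3 gave −1.97 at 60 min. Among 8 selection marker genes, URA3 was the member higher in the POG1 culture and MET17 the member higher in the KIN28 culture. Each direction thus held 12.5% of the list, against 3.64% of all genes for the POG1 culture and 6.91% for the KIN28 culture. LEU2, another of these markers, gave 70.9 in the KIN28 culture and 54.2 in the POG1 culture at 60 min. The 2-micron plasmid genes, carried by the natural yeast plasmid on which many vectors are built, gave a ratio of at most 1.46-fold at 60 min over their 5 probe sets, 1 of which was below the floor.

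At 60 min, 376 of the 5438 genes that exceeded the floor on 1 array or both (6.91%) were higher in the KIN28 culture and 198 (3.64%) were higher in the POG1 culture, 10.6% of genes in all. Over single probe sets the counts were 581 and 524 of 8030, which is 13.8%. At 0 min, before lithium, 193 and 218 of 5439 genes differed 2-fold, 7.56% in all. The balance of the 60 min counts followed the scaling. The median gene had a log2 ratio of 0.15, and with genes centred on that median 253 were higher in the KIN28 culture and 295 in the POG1 culture. Scaling on sets that exceeded the floor in every array gave 274 and 263 genes, and scaling on the 75th percentile gave 243 and 309. No statement on which culture had more genes above the other is therefore made, and log2 ratios are read below against the 0.15 of all genes. The dim side of many differences was background. The negative control sets had a 95th percentile of 0.531 in the POG1 culture and 0.249 in the KIN28 culture at 60 min, and a gene that read below it on the dimmer array has only a bound on its ratio. This holds for 185 of the 376 genes higher in the KIN28 culture and for 42 of the 198 higher in the POG1 culture. Counted against the negative controls, 230 of the former and 190 of the latter still differed 2-fold.

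**Figure D1:**
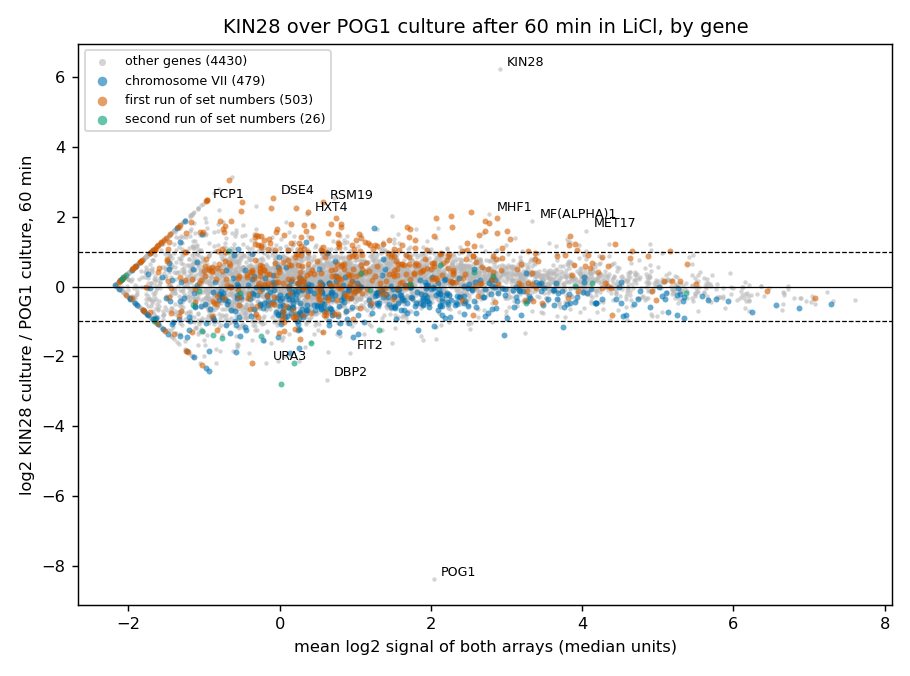
Log2 ratio (KIN28 over POG1 culture) at 60 min (vertical) against the mean log2 signal of both arrays in median units (horizontal), for the 5438 genes tested, 1 point per gene; dashed lines mark 2-fold and the straight edges at the left hold genes at the floor on 1 array. KIN28 at 6.21 and POG1 at −8.38 lie far from all other genes, and coloured points mark chromosome VII and the 2 runs of probe set numbers described in the text.

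The chromosome and the number in the probe set name, which have no part in the design, moved with the ratio, and the counts are given with and without them. The first was chromosome VII. Its 479 genes had a median log2 ratio of −0.32, against 0.19 for all other genes, and 88.7% of them lay below the median of all genes. At 0 min the median of chromosome VII was −0.68 and 94.6% of its genes lay below that of all genes. Other chromosomes also stood apart at 0 min. Less the median of all other genes, IX was at −0.47, VIII at −0.34, I at 0.33 and XI at 0.32, against −0.80 for VII. At 60 min the same values were −0.02, −0.01, −0.13 and 0.04, against −0.51 for VII. Chromosome VII held 40 of the 198 genes higher in the POG1 culture (20.2%) while making up 8.81% of the genes tested, and 7 genes higher in the KIN28 culture.

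The step was at the ends of the chromosome and not within it. Probe sets are numbered along the chromosomes, and the 100 nearest to chromosome VII on chromosome VIII had a median of 0.15 while the adjoining 100 of chromosome VII had −0.33. At its other end the 100 of chromosome VII had −0.26 and the adjoining 100 of chromosome VI had 0.17. Both arms were low, at −0.27 for the left and −0.35 for the right arm. Short open reading frames known from tag sequencing, which are numbered elsewhere on the array, gave −0.32 on chromosome VII and 0.01 on the other chromosomes. Over those at or above the array median the values were −0.36 and −0.12, and intergenic sets gave −0.44 on chromosome VII and −0.36 elsewhere. Setting each gene on each array against its own mean on the other 3, the median of chromosome VII less that of other genes was −0.58 then −0.30 in the KIN28 culture, and 0.47 then 0.39 in the POG1 culture. The step thus ran the same way at both times, and with 2 cultures a low KIN28 culture and a high POG1 culture cannot be told apart. DNA copy number was not measured, and its part in the result was not tested.

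**Figure D2:**
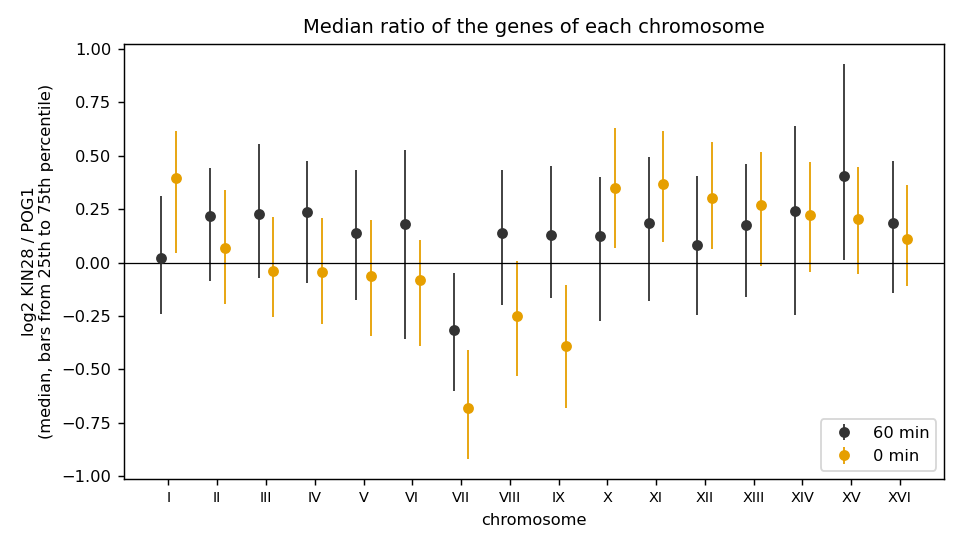
Median log2 ratio of the KIN28 over the POG1 culture for the genes of each chromosome (points), with bars from the 25th to the 75th percentile, at 60 min (black) and 0 min (orange). Chromosome VII lies lowest at both times, at −0.32 and −0.68, and at 60 min the median of chromosome XV is highest at 0.41.

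The second was a run of probe set numbers, seen at 60 min. Between numbers 8300 and 8949, 127 of 503 genes (25.2%) were higher in the KIN28 culture, against 248 of 4909 (5.05%) outside the runs described here. This run, 9.25% of the genes tested, held 33.8% of the genes higher in the KIN28 culture. It crosses a chromosome boundary: the counts were 94 of 351 genes (26.8%) of chromosome XV in the run and 33 of 151 (21.9%) of chromosome XIV in it, against 15 of 126 and 11 of 213 of the genes of these chromosomes outside it. Up to 11 consecutive numbers were higher in the KIN28 culture without a break. At 0 min 2.96% of the same genes were. Setting each array against the mean of the other 3, the median gene of the run stood at −0.37 in the POG1 culture at 60 min relative to genes outside it, while the KIN28 array of 60 min stood at 0.09 and the 0 min arrays at 0.29 (KIN28) and 0.04 (POG1). A shorter run, at numbers 5450 to 5549 on chromosome V, had 8 of 26 genes (30.8%) higher in the POG1 culture, with the KIN28 culture at 60 min standing at −0.48 by the same measure. The ends of both runs were set after the values were seen, and the position of probe sets on the array, which is not given in the sources used here, was not tested.

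**Figure D3:**
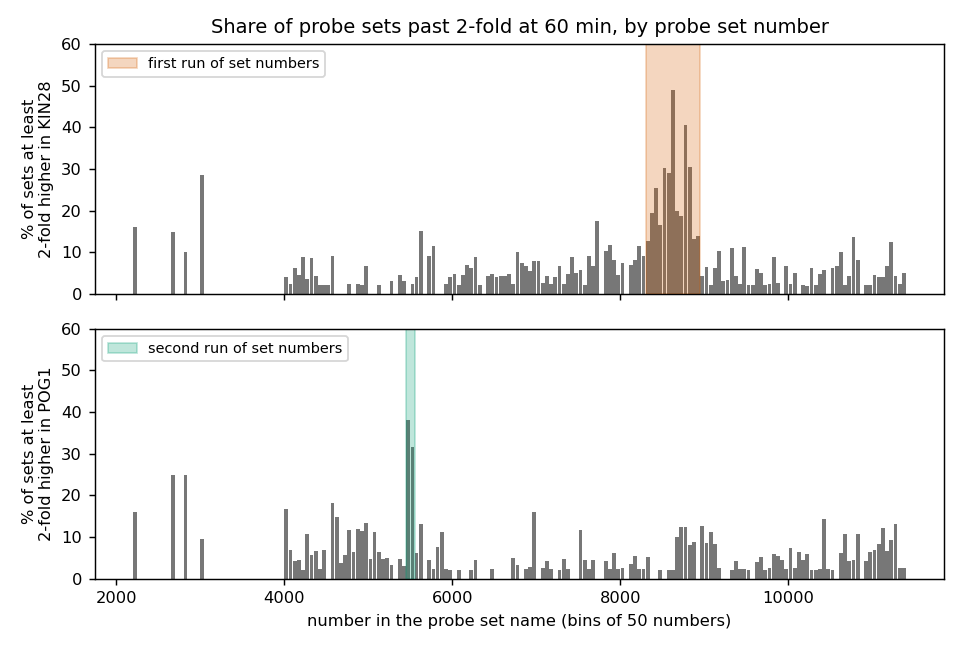
Percent of probe sets at least 2-fold higher in the KIN28 culture (top) and in the POG1 culture (bottom) at 60 min, by the number in the probe set name in bins of 50 numbers with at least 20 probe sets tested; bars start at 0. The shaded runs are at numbers 8300 to 8949 and 5450 to 5549.

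Without chromosome VII and both runs, 241 of 4430 genes (5.44%) were higher in the KIN28 culture and 135 (3.05%) in the POG1 culture. Among genes at or above the array median on the brighter array and outside all of these, the counts were 130 and 80 of 3205. Genes of these regions are marked as such below.

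The 15 highest ratios, taken over named protein-coding genes read above both floors and at least as bright as the array median on 1 array, were those of KIN28, 8 genes of the run at 8300 to 8949 and 6 others. The 8 were RSM19 (2.41), TPT1 (2.26), KSH1 (2.15) and DOM34 (2.12), which read above the negative controls on both arrays, and DSE4 (2.55), BUD21 (2.43), UFE1 (2.25) and ASE1 (2.16), which read below them in the POG1 culture. Against the negative controls DSE4 was at least 4.30-fold higher, UFE1 at least 3.81-fold, BUD21 at least 3.08-fold and ASE1 at least 2.80-fold. DSE4 encodes a daughter cell wall glucanase, TPT1 an enzyme of tRNA splicing and DOM34 a factor that rescues stalled ribosomes. FCP1, on chromosome XIII and outside the run, encodes a phosphatase that removes phosphate from the tail of RNA polymerase II. It gave 1.75 then 1.19 in the KIN28 culture, and 1.83 then 0.218 in the POG1 culture, where the last value lay just above the floor. Its log2 ratio of 2.44 at 60 min and −0.07 at 0 min thus rested on a low reading in the POG1 culture at 60 min, and against the negative controls the difference was at least 2.23-fold.

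The other 5 lay, like FCP1, outside the regions described. SPS100, a spore wall gene, was at the floor in both cultures at 0 min and gave 1.79 in the KIN28 culture and 0.362 in the POG1 culture at 60 min (log2 ratio 2.31, at least 3.37-fold against the negative controls). MDM10, which encodes a mitochondrial outer membrane protein, gave 1.23 and 0.270 at 60 min (2.18, at least 2.31-fold against the negative controls) after 0.908 and 0.988 at 0 min. HXT4, a hexose transporter gene, gave 2.64 and 0.631 (2.06). These 3 genes differed little at 0 min, with HXT4 at 0.37. MHF1, a gene of DNA repair, and DIC1, the mitochondrial dicarboxylate carrier, had log2 ratios of 2.06 and 2.03 and were also higher in the KIN28 culture at 0 min, by 1.46 and 1.19.

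With the regions left out, a choice made after the values were seen, the next named protein-coding genes in order were the alpha-factor gene MF(ALPHA)1 (1.86), ENA5 (1.84), the recombination gene RAD57 (1.80), the methionine synthase gene MET6 (1.78), the iron regulator gene AFT2 (1.77), COQ21 (1.67), VVS1 (1.65) and CBT1 (1.64). Of these ENA5, MET6, AFT2 and CBT1 read below the negative controls in the POG1 culture, so that their place in the order is not set. Against the negative controls they were at least 2.12-, 1.99-, 2.47- and 2.66-fold higher. COQ21 gave 7.64 in the KIN28 culture and 2.39 in the POG1 culture at 60 min, and VVS1 6.20 and 1.97, so both were well above the array median on both arrays. At 0 min the ratio of these 8 genes lay between −0.31 for VVS1 and 0.91 for MET6.

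A set of 5 genes was above the array median in the KIN28 culture and at the floor in the POG1 culture. IZH4, a zinc-responsive membrane protein gene, was at least 8.25-fold higher, the vacuolar transporter gene AVT5 at least 6.91-fold, MRX11 at least 6.36-fold, the replication gene ELG1 at least 5.57-fold and RTC1 at least 5.55-fold. IZH4, ELG1 and RTC1 lie in the run at 8300 to 8949. Against the negative controls of the POG1 array the bounds were lower, from 2.28-fold for RTC1 to 3.38-fold for IZH4.

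The lowest ratio among the genes above the floor was that of DBP2, which encodes an RNA helicase that acts in ribosome biogenesis and messenger RNA decay. DBP2 gave 6.23 then 0.612 in the KIN28 culture, and 6.33 then 3.89 in the POG1 culture, from 2 probe sets, a log2 ratio of −2.67 after −0.02 at 0 min. Both cultures started alike and the KIN28 culture was 6.36-fold lower at 60 min. After DBP2 and URA3 came SLX8 (−2.19), a ubiquitin ligase subunit acting on sumoylated proteins, then WHI5 (−2.18), the peroxisome import gene PEX17 (−2.14) and the mismatch repair gene PMS1 (−1.98). WHI5, which encodes an inhibitor of entry into the cell cycle, gave 0.365 in the KIN28 culture and 1.65 in the POG1 culture at 60 min. It lies in the run at 8300 to 8949 with a ratio opposite to that of most genes there.

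FIT2, a cell wall mannoprotein gene induced when iron is short, gave 0.7505 then 0.985 in the KIN28 culture, and 4.01 then 3.67 in the POG1 culture. FIT2 was thus higher in the POG1 culture at both times, with log2 ratios of −1.90 at 60 min and −2.42 at 0 min. MF(ALPHA)2 (−1.92) and MGA1 (−1.87) lie on chromosome VII. The remaining lowest genes were VRL1 (−1.91), EMW1 (−1.87), the pheromone processing gene AXL1 (−1.86), BIT61 (−1.85), LIN1 (−1.73) and the exocyst gene SEC10 (−1.72). A second exocyst gene, EXO70, followed outside the 15 at −1.64.

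Besides POG1, 4 genes above the median in the POG1 culture and at the floor in the KIN28 culture were named, under the same limit of 5. SDA1, a gene of ribosome biogenesis, was at least 5.38-fold higher in the POG1 culture, the tRNA modification gene TYW3 at least 5.07-fold, the biotin precursor transporter gene BIO5 at least 4.76-fold and the ribosome biogenesis gene RRP36 at least 4.54-fold. SDA1 and TYW3 lie on chromosome VII and BIO5 in the run at 8300 to 8949. The negative controls of the KIN28 array were close to its floor, so that the bounds against them were 4.87-fold for SDA1 and 4.11-fold for RRP36.

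Of 88 members of the ribosome biogenesis list above the floor, 15 (17.0%) were higher in the POG1 culture, against 3.64% of all genes, and 5 were higher in the KIN28 culture, against 6.91%. These genes make and export the ribosomal subunits. Their median log2 ratio was −0.36, against 0.15 for all genes, after 0.08 at 0 min. Scaling by the spiked bacterial controls, which puts the median of all genes at 0.93, put the ribosome biogenesis list at 0.42. Against the negative controls 14 of the 15 and 1 of the 5 still differed 2-fold. Of the 15, 4 lie on chromosome VII and 2 in the run at 8300 to 8949. Without chromosome VII and the runs the counts were 9 and 3 of 69, against 3.05% and 5.44% of all genes there. The median of the 69 was −0.33. The list was lower at 60 min than at 0 min in both cultures, in 87 of 88 genes of the KIN28 culture and in 88 of 88 of the POG1 culture, with median log2 changes of −1.93 and −1.50.

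The 15 genes act at several steps. HCA4, a helicase of the small subunit processome, gave 2.57 and then the floor in the KIN28 culture, and 2.41 then 0.871 in the POG1 culture, at least 3.87-fold more at 60 min. LTV1, which acts in export of the small subunit, gave 3.33 then 0.381 in the KIN28 culture, and 1.96 then 1.22 in the POG1 culture. Its ratio was 0.76 at 0 min and −1.68 at 60 min. NOC3, which acts on the large subunit and in DNA replication, gave 0.283 and 0.897 at 60 min (−1.66).

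Smaller differences, between −1.37 and −1.02, were those of RCL1, NOG2, NSR1, UTP8, NUG1, UTP7, ENP1, NOC4 and KRR1, of which RCL1 and NOG2 lie in the run and NSR1 and UTP8 on chromosome VII. ENP2, at −2.02 and at the floor in the KIN28 culture, also lies on chromosome VII. The members higher in the KIN28 culture were BUD21 and RLP7 (1.0008) in the run, and FYV7 (1.89, at the floor in the POG1 culture), UTP9 (1.58) and MPP10 (1.10) outside it. BUD21, UTP9 and MPP10 encode parts of the same small subunit processome as HCA4 and UTP7, and of these 3 BUD21 still differed 2-fold against the negative controls.

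The genes of guanine nucleotide synthesis IMD4 and GUA1 stood beside them. IMD4 gave 19.9 then 2.98 in the KIN28 culture, and 20.3 then 6.42 in the POG1 culture (−1.11 at 60 min). GUA1 gave 36.6 then 3.76 in the KIN28 culture, and 31.0 then 8.66 in the POG1 culture (−1.20). Both were nearly equal before lithium and lower with KIN28 overexpressed 60 min after it. They were the only members of the 24 purine genes past 2-fold, or 8.33% higher in the POG1 culture against 3.64% of all genes.

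Of 81 genes for proteins of the cytoplasmic ribosome, 5 (6.17%, near the 6.91% of all genes) were higher in the KIN28 culture. In the POG1 culture 0 were higher, against 3.64% of all genes, and the median was 0.02. RPL27B gave 18.7 and 8.40 at 60 min (1.16), and RPL9B (1.72) is read by a suffixed set that may cross-hybridize with its close copy. Of the 5, 3 lie in the run at 8300 to 8949. Of 31 genes of RNA polymerase I and III, which transcribe ribosomal and transfer RNA, 2 (6.45%) were higher in each culture, against 6.91% and 3.64% of all genes. RPA49 gave 2.24 and 5.96 (−1.41) and the initiation factor gene RRN3 had −1.01, while RPC82 had 1.48 and RPC34 1.05. Both RPC82 and RPC34 read below the negative controls in the POG1 culture, and 1 of the 2 still differed 2-fold against them. With the floor at the negative controls RPC34 had −0.21, so its direction is not set.

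**Figure D4:**
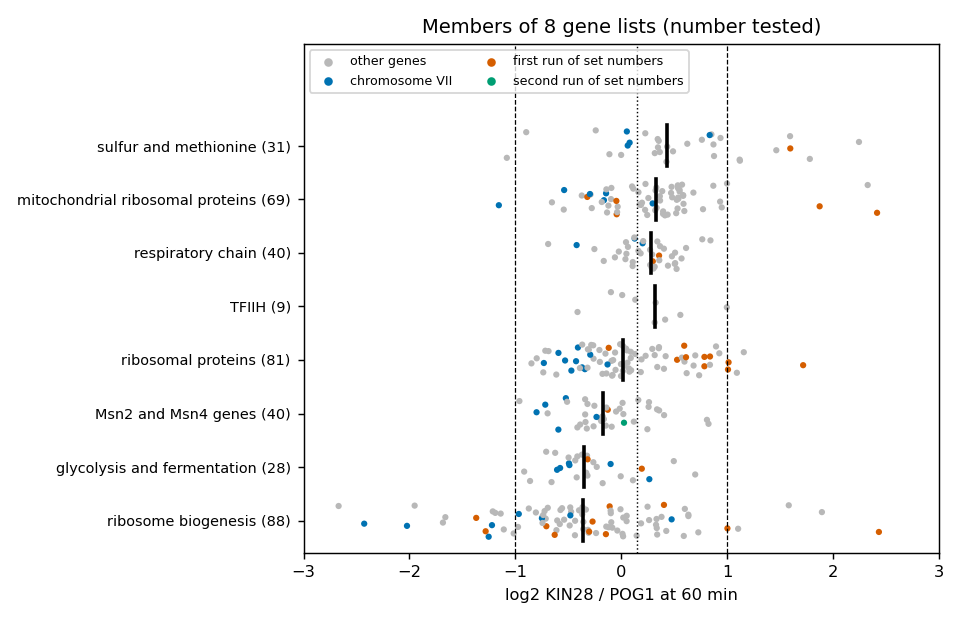
Log2 ratio (KIN28 over POG1 culture) at 60 min for the members of 8 gene lists, 1 point per gene tested, with the number tested in brackets and the median as a thick bar; the dotted line is the median of all genes (0.15) and dashed lines mark 2-fold. Vertical spread within a list only separates the points. The medians run from −0.36 for ribosome biogenesis to 0.43 for sulfur and methionine genes.

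Of 31 genes of sulfate assimilation and methionine synthesis, 7 (22.6%) were higher in the KIN28 culture, against 6.91% of all genes. The transporter gene MUP3 was the 1 higher in the POG1 culture (3.23%, against 3.64%). The other 23 were within 2-fold, and against the negative controls 4 of the 7, MET17, MET22, MET28 and SAM2, still differed 2-fold. MUP3 read below the negative controls in the KIN28 culture and no longer differed 2-fold against them. The median was 0.43, after 0.02 at 0 min. Without chromosome VII and the runs 6 of 26 were higher in the KIN28 culture, against 5.44% of all genes there. The median of the 26 was 0.46. MET17, which joins sulfide to the carbon skeleton of homocysteine, gave 12.3 then 28.9 in the KIN28 culture, and 6.30 then 9.58 in the POG1 culture. Its log2 ratio was 1.59 at 60 min and 0.96 at 0 min. MET17 is also used as a selection marker in laboratory strains.

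MET2, which encodes homoserine acetyltransferase, was at the floor on every array but that of the KIN28 culture at 60 min, where it gave 1.03. It was at least 4.73-fold higher there, or at least 1.94-fold against the negative controls. MET6, methionine synthase, gave 3.69 then 1.06 in the KIN28 culture, and 1.97 then 0.308 in the POG1 culture, at least 1.99-fold apart at 60 min against the negative controls. The sulfate permease gene SUL2 had a ratio of 1.46 (at least 1.58-fold against the negative controls), the regulator gene MET28 1.12 and the S-adenosylmethionine synthetase gene SAM2 1.12. The list's members did not all move one way over time: MET17 and MET28 were higher at 60 min than at 0 min in both cultures and MET6 and SAM2 lower.

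MET22 encodes the phosphatase that lithium inhibits. It gave 7.13 then 13.98 in the KIN28 culture, and 5.93 then 4.63 in the POG1 culture, a log2 ratio of 1.59 at 60 min and 0.26 at 0 min. MET22 lies in the run at 8300 to 8949, and its only probe set could not be read against another. Of the 12 genes listed as lithium targets and their partners, it was the member past 2-fold (8.33%, against 6.91% of all genes higher in the KIN28 culture). The phosphoglucomutase genes PGM1 and PGM2 had ratios of 0.29 and −0.33 and the inositol monophosphatase genes INM1 and INM2 −0.68 and 0.47.

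Of 40 genes driven by the general stress factors Msn2 and Msn4, 0 were past 2-fold, against 6.91% and 3.64% of all genes in the 2 directions. Bright genes passed 2-fold less often, 3.25% of those with a mean signal of 8 or above. The list was not matched for brightness and holds bright genes such as HSP12, so these shares are a loose yardstick for it. Their median was −0.17, and 31 of 40 lay below the median of all genes. HSP12, a small membrane-protecting protein gene, gave 3.24 then 104 in the KIN28 culture, and 4.803 then 132 in the POG1 culture (−0.34). The catalase gene CTT1 gave 11.01 and 16.6 at 60 min (−0.59), and lies on chromosome VII. ALD3, a stress-induced aldehyde dehydrogenase gene, had the largest difference of the list at −0.96. Of 21 genes of Hsp90 and other heat shock proteins 0 were past 2-fold, against 10.6% of all genes. Of 16 Hsp70 and Hsp110 genes 1 was (6.25%, near the 6.91% of all genes), the mitochondrial ECM10 (1.56, at least 1.78-fold against the negative controls).

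Of 23 osmotic and glycerol genes, 2 (8.70%, against 6.91% of all genes) were higher in the KIN28 culture and 1 (4.35%, against 3.64%) in the POG1 culture. Their median was −0.09. GPD1, the first enzyme of glycerol synthesis, gave 57.9 and 93.8 at 60 min (−0.70), GPP2 23.0 and 39.5 (−0.78) and GPP1 32.9 and 45.2 (−0.46), all within 2-fold. STL1, the glycerol importer, gave 0.246 and 0.721 (−1.55) and was the member higher in the POG1 culture, and SIP18 and SKO1 were higher in the KIN28 culture by 1.15 and 1.05. In the HOG pathway, which senses osmotic stress, 2 of 19 genes (10.5%) were higher in each culture, against 6.91% and 3.64% of all genes. They were MSB2 (1.29, on chromosome VII) and SSK2 (1.06) in the KIN28 culture, and SHO1 (−1.35) and MSN1 (−1.21) in the POG1 culture. SSK2 and MSN1 lie in the run at 8300 to 8949.

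Of 22 genes of cation transport, ENA5 was higher in the KIN28 culture and HAL5 in the POG1 culture, and the median was −0.01. Each direction thus held 4.55% of the list, against 6.91% and 3.64% of all genes. ENA5 encodes a sodium and lithium pump and gave 1.22 then 1.12 in the KIN28 culture, and 1.14 then 0.315 in the POG1 culture. Its near-identical neighbours ENA1 and ENA2 could hybridize to the same probes, so the reading is uncertain. HAL5, a kinase gene that stabilizes potassium transporters, gave 4.88 then 3.33 in the KIN28 culture, and 3.55 then 6.72 in the POG1 culture, a ratio of −1.01 after 0.46 at 0 min. The proton pump gene PMA1 had −0.35, the sodium antiporter gene NHA1 −0.04 and the potassium transporter genes TRK1 and TRK2 −0.17 and 0.59.

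The 28 genes of glycolysis and fermentation had a median of −0.35, after −0.15 at 0 min, with 24 of 28 below the median of all genes. Past 2-fold were 0, against 10.6% of all genes and 3.25% of those with a mean signal of 8 or above. ENO2, enolase, gave 79.2 and 125 at 60 min (−0.66) and 74.7 and 122 at 0 min (−0.71), so it was lower in the KIN28 culture before lithium as well. The glyceraldehyde-3-phosphate dehydrogenase gene TDH1 gave 47.9 and 73.9 at 60 min (−0.62). Respiratory chain genes had a median of 0.28, after −0.13 at 0 min, with 0 of 40 past 2-fold against 10.6% of all genes. For mitochondrial ribosomal proteins the median was 0.33, after 0.07 at 0 min. Of these 69 genes, 3 (4.35%, against 6.91% of all genes) were higher in the KIN28 culture and 1 (1.45%, against 3.64%) in the POG1 culture. Of those 3, RSM19 (2.41) and MRPS12 (1.87) lie in the run. Among 13 hexose transport genes, HXT4 (2.06) and the repressor partner gene MTH1 (1.12) were higher in the KIN28 culture (15.4%, against 6.91% of all genes). HXT2, another glucose transporter gene, gave 2.19 and 6.31 (−1.53) and was the member higher in the POG1 culture (7.69%, against 3.64%). Other carbon genes past 2-fold were SOL1 of the pentose phosphate list (1.77, in the run at 8300 to 8949), the glycogen phosphorylase gene GPH1 (1.14), the citrate synthase gene CIT1 (1.01, in the run at 8300 to 8949), FBP1 (1.01) and GAL10 (−1.004). Against the negative controls FBP1 and GAL10 no longer differed 2-fold. FBP1 read below the negative control level of the POG1 array in both cultures, so its direction is not set.

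In the transcription machinery, to which Kin28 belongs, the partners of KIN28 stayed within 2-fold, while 10.6% of all genes were past it. All 9 other TFIIH genes were within 2-fold, with a median of 0.31: its cyclin gene CCL1 had 0.31, the third kinase subunit gene TFB3 0.32, and TFB4 came nearest to 2-fold at 0.995. Of 10 genes for kinases and phosphatases of the polymerase tail, FCP1 was the member past 2-fold (10%, against 6.91% of all genes higher in the KIN28 culture). The kinase genes CTK1 and SSN3 had −0.50 and 0.45, and the phosphatase genes SSU72 and RTR1 −0.33 and 0.26. RPO21, which encodes the largest polymerase subunit, gave 17.8 and 19.9 at 60 min (−0.16).

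Of 34 genes of RNA polymerase II and the Mediator complex, SRB2 (1.28), RPB11 (1.25, in the run at 8300 to 8949) and RPB3 (1.13) were higher in the KIN28 culture (8.82%, against 6.91% of all genes). SPT15, which encodes the TATA-binding protein, was the member higher in the POG1 culture (2.94%, against 3.64% of all genes), at 1.61 against 3.84 (−1.25). It lies in the run at 5450 to 5549, and the 3 control probe sets along the same gene gave other ratios: 0.45 at the 3′ end, 0.75 in the middle and −0.03 at the 5′ end. The gene probe set and the control probe sets of SPT15 thus differed by more than 2-fold on the same arrays.

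POG1 is linked to the G1 phase of the cell cycle and to recovery from pheromone, and genes of both were examined. Of 14 genes of G1 entry, NRM1 (1.46, in the run at 8300 to 8949) and PCL2 (1.10, at least 1.76-fold against the negative controls) were higher in the KIN28 culture, and WHI5 (−2.18, in the same run) and SWI4 (−1.26) in the POG1 culture. Each direction thus held 14.3% of the list, against 6.91% and 3.64% of all genes. SWI4, a subunit of the G1 transcription factor SBF, gave 0.240 in the KIN28 culture, near the floor, and 0.572 in the POG1 culture. The G1 cyclin genes CLN1, CLN2 and CLN3 had ratios of 0.82, −0.22 and −0.24. Of 25 pheromone response genes, STE20 (1.35), FAR1 (1.20) and ASG7 (12%, against 6.91% of all genes) were higher in the KIN28 culture. PRM4 (−1.07) and PRM5 (−1.04) were higher in the POG1 culture (8%, against 3.64% of all genes). ASG7 was at the floor in the POG1 culture and below the negative control level of that array in the KIN28 culture, so its direction is not set (−0.0886 with the floor at the negative controls). FAR1, which encodes the inhibitor that arrests cells in G1, gave 4.68 then 1.31 in the KIN28 culture, and 1.56 then 0.572 in the POG1 culture, and was higher at 0 min too (1.59).

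Of the 4 markers of alpha cells, 2 (50%, against 6.91% of all genes) were higher in the KIN28 culture. In the POG1 culture 1 was higher (25%, against 3.64%). MF(ALPHA)1, the main alpha-factor gene, gave 53.9 then 19.3 in the KIN28 culture, and 54.6 then 5.31 in the POG1 culture. It was nearly equal at 0 min and 3.64-fold higher in the KIN28 culture at 60 min. MF(ALPHA)2, a related gene on chromosome VII, gave 13.8 then 0.565 in the KIN28 culture, and 34.3 then 2.13 in the POG1 culture, a ratio of −1.92. STE3, the alpha cell receptor gene for a-factor, had 1.08, and the agglutinin gene SAG1 −0.57. Of the markers of a cells, AGA2 and BAR1 were at the floor on both arrays at 60 min, and MFA1, MFA2, STE2, STE6 and ASG7 gave between 0.218 and 1.35.

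Genes expressed in daughter cells as they separate had 4 of 12 members higher in the KIN28 culture (33.3%, against 6.91% of all genes), with a median of 0.54 and of 0.66 at 0 min. Without chromosome VII and the runs 2 of 9 were, against 5.44% of all genes there. The other 8 of the 12 were within 2-fold. SCW11 (−0.55), DSE3 (−0.24), CTS1 (−0.18) and DSE2 (−0.15) lay below the median of all genes. DSE4 and SUN4 (1.19) lie in the run at 8300 to 8949. PST1, a cell wall protein gene, gave 43.2 and 21.0 at 60 min (1.04). ASH1, which encodes the daughter-specific repressor of HO, gave 11.3 then 9.41 in the KIN28 culture, and 3.24 then 4.61 in the POG1 culture. With ratios of 1.03 and 1.81, ASH1 was higher in the KIN28 culture at both times.

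Of 20 genes of RSP5 and its adaptors, UBP2 (1.24, in the run at 8300 to 8949), SSH4 and CSR2 were higher in the KIN28 culture and RIM8 (−1.25, on chromosome VII) in the POG1 culture. These are 15% and 5% of the list, against 6.91% and 3.64% of all genes. UBP2, which encodes a ubiquitin protease that works with Rsp5, gave 8.58 and 3.64, while SSH4 and CSR2 were at the floor in the POG1 culture and gave at most 0.523 in the KIN28 culture. With the floor at the negative controls their values were −0.0212 and −0.17. Both genes read below the level of 0.531 on the POG1 array, so that sign follows from the level and their direction is not set. UBP2 alone of the 3 still differed 2-fold against the negative controls. In the ubiquitin list of 26 genes, RFU1 was higher in the KIN28 culture, though at the floor in the POG1 culture and by at least 1.08-fold against the negative controls, and UBP3 (−1.38, in the run at 5450 to 5549) in the POG1 culture. Each direction held 3.85% of that list, against 6.91% and 3.64% of all genes. Of 35 proteasome genes 1, PRE6 (1.21, in the run at 8300 to 8949), was past 2-fold (2.86%, against 10.6% of all genes).

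Of 35 iron and copper genes, 5 (14.3%, against 6.91% of all genes) were higher in the KIN28 culture and 3 (8.57%, against 3.64%) in the POG1 culture. Without chromosome VII and the runs the counts were 3 and 3 of 29, against 5.44% and 3.05% of all genes there. The 3 higher in the POG1 culture were FIT2, the siderophore transporter gene SIT1 (−1.18) and the reductase gene FRE2 (−1.11). SIT1 gave 2.21 then 1.91 in the KIN28 culture, and 4.22 then 4.34 in the POG1 culture, lower in the KIN28 culture at both times. AFT2, which encodes an activator of iron genes, gave 1.31 and 0.385 at 60 min. The siderophore transporter genes ENB1 (1.37, in the run at 8300 to 8949) and ARN1 (1.10) were on the other side.

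Thiamine, biotin and NAD genes had 5 of 30 members higher in the KIN28 culture (16.7%, against 6.91% of all genes). In the POG1 culture 3 were higher (10%, against 3.64%). Without chromosome VII and the runs the counts were 3 and 0 of 18, against 5.44% and 3.05% of all genes there. The acid phosphatase gene PHO3, which releases thiamine from its phosphate outside the cell, gave 22.2 and 8.72 (1.35). THI4, an enzyme of thiamine synthesis on chromosome VII, had −1.83, and BIO5 and BIO4, which act in biotin synthesis, had −2.25 and −1.03. Of 30 phospholipid and fatty acid genes, 4 (13.3%, against 6.91%) were higher in the KIN28 culture. INO1 (−1.01) was the 1 higher in the POG1 culture (3.33%, against 3.64%). Without chromosome VII and the runs the counts were 2 and 1 of 23, against 5.44% and 3.05% of all genes there. ELO1, a fatty acid elongase, gave 23.2 then 45.6 in the KIN28 culture, and 9.99 then 19.6 in the POG1 culture, and FAS1, fatty acid synthase, had 1.10. Both were higher at 0 min by about as much, 1.21 for ELO1 and 1.13 for FAS1, while ACC1 and ITR2 lie in the run at 8300 to 8949.

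In the cell wall list, 5 of 37 genes (13.5%, against 6.91%) were higher in the KIN28 culture and 1 (2.70%, against 3.64%) in the POG1 culture. The median ran the other way, at −0.19, with 24 of 37 genes below the median of all genes. UTR2, which crosslinks chitin to glucan, gave 10.9 and 3.79 (1.52), and GSC2, the stress-induced glucan synthase on chromosome VII, had −1.30. Histone gene HTB2 gave 16.7 then 5.55 in the KIN28 culture, and 15.4 then 2.51 in the POG1 culture, a ratio of 1.14 at 60 min. Arginine synthesis gene ARG1 had 1.45 and transporter gene ORT1 1.05, both in the run at 8300 to 8949. Over the 55 lists with at least 10 genes tested, medians ran from −0.42 for silenced and subtelomeric genes to 0.54 for daughter separation, and 10 lists had no member past 2-fold.

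The 0 min pair shares no array with the 60 min pair, but shares its cultures, plasmids and media. Over 5341 genes tested at both times the log2 ratios had a Pearson correlation of 0.27, as a description across genes, and 0.21 without chromosome VII. Of the 574 genes past 2-fold at 60 min, 58 were past 2-fold the same way at 0 min, which is 10.1% of the calls at 60 min and 14.1% of the 411 at 0 min. By direction, 7.45% of the genes higher in the KIN28 culture at 60 min were so at 0 min, against 3.55% of all genes, and 15.2% of those higher in the POG1 culture, against 4.01%. Those 58 were 28 genes higher in the KIN28 culture and 30 higher in the POG1 culture, 13 of the latter on chromosome VII. A further 19 were past 2-fold in opposite ways, and 370 of the 574 (64.5%) had differed by less than 1.5-fold at 0 min, against 73.7% of all genes tested at both times.

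**Figure D5:**
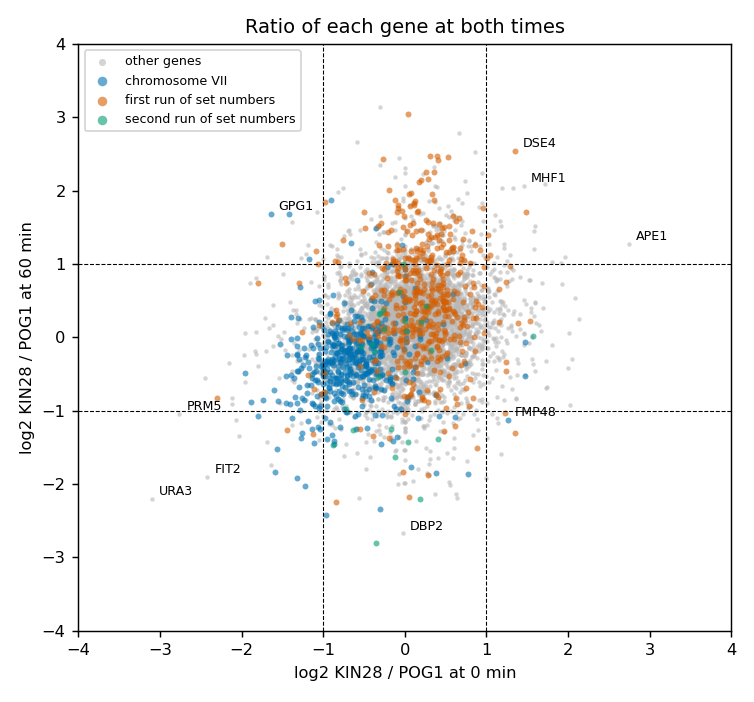
Log2 ratio (KIN28 over POG1 culture) at 60 min (vertical) against that at 0 min (horizontal) for genes tested at 60 min, 1 point per gene; dashed lines mark 2-fold, and KIN28 and POG1 lie outside the axes. Chromosome VII genes lie to the lower left, and genes of the run at 8300 to 8949 are spread upwards at ratios near 0 at 0 min.

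Of the genes higher in the KIN28 culture at both times, APE1, a vacuolar aminopeptidase gene, gave 5.19 then 22.2 in the KIN28 culture, and 0.775 then 9.16 in the POG1 culture, with ratios of 2.74 and 1.28. ASH1, FAR1, MHF1 and RPL9B were others. Higher in the POG1 culture at both times besides URA3 and FIT2 were PRM5, a cell wall integrity target gene, and the transporter genes VMR1 and MCH5. PRM5 gave 1.54 then 4.01 in the KIN28 culture, and 10.5 then 8.27 in the POG1 culture, ratios of −2.77 at 0 min and −1.04 at 60 min. VMR1 had −2.07 and −1.13 and MCH5 −2.04 and −1.35.

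Genes that were nearly equal at 0 min and apart at 60 min included, on the KIN28 side, CUE1, which anchors an enzyme of protein degradation at the endoplasmic reticulum (4.60 against 1.94 at 60 min, 1.24), the chaperone gene HLJ1 (3.70 against 1.81, 1.03) and OTU2 (1.17 against 0.429, 1.45, at least 2.21-fold against the negative controls). On the POG1 side they were IPI3 (−1.54) and ENP1 (−1.14) of ribosome biogenesis, DBP2, IMD4, the pheromone processing protease gene STE23 (−1.42) and FRE2. IPI3 gave 2.14 then 0.455 in the KIN28 culture, and 2.15 then 1.33 in the POG1 culture. Of these 6 genes on the POG1 side, 4 act in making ribosomes or guanine nucleotides, but the list from which they come was chosen by their ratios and is given as a description.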

How the data were processed

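The deposited sample files hold, per probe set, an intensity on a linear scale and a ratio that the authors made by dividing it by a constant per array; the summary software is not given in the sources used here. A deposited table of the whole series holds the same intensity to rounding. The intensity was divided by the array's median over the 9275 probe sets that are no controls, floored at the array's 20th percentile and taken to log2. The 2443 sets that match no gene and the 328 that match several entered only the counts of probe sets. Gene names came from the platform annotation and RefSeq symbols, and a gene's value is the mean over its 1-gene sets, sets with a suffix, open to cross-hybridization, being used only for the 211 genes that had no other. A difference counted from 2-fold, with 1 of both arrays above the floor. With 1 array per group no test was possible, and the number of arrays limits the precision.

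Named were KIN28, POG1, RSP5 and selection markers; the 15 highest and 15 lowest among protein-coding genes with a name, above both floors and at least at the median of 1 array; up to 5 a direction as bounds; from each of 63 lists up to 4 a direction; and, among bright genes past 2-fold, 6 a direction nearest to and farthest from equality at 0 min and those of opposite direction. Other list members are given as examples chosen after their values were seen. Members, lists and tests were chosen with earlier results of these data known, and the runs of probe set numbers were found in the data, as the bins of 50 numbers around the largest share of calls in which at least 10% were past 2-fold. Alternatives changed the scaling, floor, filter, threshold, file and probe sets used. The steps were tested on simulated data. Python 3.11.15, numpy 2.4.6, pandas 2.3.3, statsmodels 0.14.6 and matplotlib 3.10.9 were used.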

Additional observations from a re-analysis of the deposited data

Results flagged for a closer look

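Several genes at or above the array median were past 2-fold in opposite directions at 0 and 60 min, a difference between the times that was not tested since each has 1 array a culture. GPG1, on chromosome VII, had a log2 ratio of 1.68 at 60 min and −1.64 at 0 min, reading 0.377 at 0 min and 4.24 at 60 min with KIN28 overexpressed, and 1.18 and 1.32 with POG1 overexpressed. The chaperone gene APJ1 had −1.37 and 1.004, FMP48 −1.13 and 1.26, MRX7 −1.04 and 1.07, and BIO4, in the run of probe set numbers at 8300 to 8949, −1.03 and 1.23.

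Control probe sets, which the comparisons leave out, also differed. A 25S ribosomal RNA set gave a log2 ratio of 2.22 at 60 min, from signals of 30.9 and 6.62, after 53.9 and 27.8 at 0 min. The other sets for that RNA gave 8.57, −2.78, −2.73 and 0.45, from signals below the array median on both arrays. The last of them had read 91.9 and 73.1 at 0 min. The sets at 8.57, −2.78 and −2.73 read below the negative control level of 0.531 in the POG1 culture, so their ratios are not firm. Of the 18S sets, those reading 1.71 and 0.493, 2.30 and 1.01, and 0.726 and 0.275 gave 1.80, 1.19 and 1.40. The values of 0.493 and 0.275 also lay below 0.531. The remaining 18S sets gave −1.08 and −0.32, from signals below 0.531 on both arrays. A difference in ribosomal RNA was not tested. The control set for URA3 gave −1.97 at 60 min.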

How the results depend on the processing

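No paired analysis was possible because each culture and time has 1 array and the labels give no replicate numbers. The counts of 574 genes and 1105 probe sets past 2-fold at 60 min, and of 58 genes past 2-fold the same way at both times, stayed within 1.5 times under the deposited ratio, the other median, the 75th percentile, quantile, lowess, no scaling and the series table. Scaling by the spiked bacterial controls, which shifts the median gene to 0.93, gave 2446 genes (2413 of them higher in the KIN28 culture), 3367 sets and 130 shared genes. No scaling gave 587 genes higher in the KIN28 culture and 125 higher in the POG1 culture. Without a floor the counts were 871, 2422 and 139. With a floor at the 40th percentile they were 275, 381 and 26. With both arrays above the floor 674 sets and 37 shared genes remained, and with the brighter array at or above its median 356 genes, 519 sets and 30 shared. A floor at the negative controls left 31 shared genes and 229 genes higher in the KIN28 culture against 216. At 1.5-fold the counts were 1599, 2808 and 363, and at 3-fold 138, 300 and 7. Added after the data were seen, leaving out chromosome VII and both runs gave 380 genes and 38 shared, and removing each chromosome's median 33 shared. The chromosome VII difference of −0.51 kept its sign, between −0.54 and −0.46. Of 170 named genes past 2-fold, 64 kept the call under every one of the 12 alternatives in which they were tested. Leaving out the spiked controls, 79 did. A gene that no longer exceeded the floor on 1 array or both under an alternative was not tested there. Reversals came with the floor at the negative controls, which is higher on the POG1 array, for genes at the floor there: ASG7 −0.0886, CSR2 −0.17, FBP1 −0.28, FRE4 −0.11, RED1 −0.17, RPC34 −0.21, SSH4 −0.0212, UPC2 −0.21 and VAM3 −0.12. Their sign follows from the unequal levels of both arrays, 0.531 and 0.249, so the direction of these genes is not set.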
